A study of Mus musculus with 8 samples.

Results

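Orosomucoids, serum amyloid A proteins, haptoglobin, hemopexin and lipocalin 2 are plasma proteins of the acute-phase response, and their transcripts were followed here in liver and fat of mice with and without Crtc1. The set held 10 of the 19348 genes in the count table, picked by gene symbol: Orm1, Orm2, Orm3, Saa1, Saa2, Saa3, Saa4, Hp, Hpx and Lcn2. Orm3 was picked because its level was higher in both tissues of the knockout, so its genotype values are given as a description and were not tested. Liver and epididymal white adipose tissue (eWAT, the fat pad beside the epididymis) came from male C57BL/6 mice aged 12 weeks that were kept on a normal diet and fasted for 16 h before they were killed. The Crtc1-/- mice were whole-body knockouts made by CRISPR/Cas9, and the Crtc1+/+ mice were littermate controls. Each tissue and genotype had 2 RNA-seq libraries, 8 in all, and the labels do not say whether liver and eWAT of the same number came from the same mouse.

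The acute-phase response is the change in blood proteins that follows infection, injury or inflammation. Cytokines of the interleukin-6 and interleukin-1 families act on hepatocytes through the receptor chain gp130, STAT3, C/EBP factors and NF-kappaB, often together with glucocorticoids, and the liver then secretes these proteins into plasma. Orosomucoids, or alpha-1-acid glycoproteins, carry basic drugs and lipids. Serum amyloid A proteins are apolipoproteins that travel on high-density lipoprotein, and Saa3 is the form made by macrophages and fat in the mouse. Haptoglobin binds free hemoglobin, hemopexin binds free heme, and lipocalin 2 binds bacterial siderophores and so withholds iron. Fat also makes some of them, including haptoglobin, orosomucoid and lipocalin 2.

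The libraries held 16560085 to 19721481 counts, and levels are given as CPM, counts per 1000000 counts after scaling within each tissue by the trimmed mean of M values (TMM). Crtc1 itself checks the labels only in part, because gene counts do not resolve the targeted exons: the livers labelled Crtc1+/+ had 11.7 and 9.86 CPM against 22.1 and 17.98 CPM in those labelled Crtc1-/-, and eWAT had 32.6 and 33.7 against 58.5 and 33.6 CPM. Crtc1 was thus not lower in any library labelled Crtc1-/- than in the lowest library labelled Crtc1+/+ of its tissue, and the genotypes below are as labelled. The eWAT libraries stood apart in what cells they held. Markers of epididymis epithelium (18 genes) took 8.53% and 9.90% of counts in the Crtc1+/+ eWAT libraries and 0.00242% and 0.00137% in the Crtc1-/- ones, while 15 adipocyte markers took 0.324% and 0.542% against 4.92% and 2.39%. Markers of hepatocytes (16 genes, all detected in all 8 libraries) took 21.7% to 25.6% of counts in liver. They took 0.136% to 0.724% in 3 eWAT libraries and 11.8% in Crtc1-/- eWAT replicate 2. The plot of log2 fold changes therefore shows each member in eWAT with and without that library. The text gives both values for each member but Orm2, for which it gives the range with each eWAT library left out in turn. In bulk tissue, more cells of a type and more RNA per cell cannot be told apart.

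The orosomucoid genes lie side by side on the plus strand of chromosome 4 (GRCm38, GENCODE annotation), Orm1 at chr4:63344560-63348163, Orm3 at chr4:63356162-63359511 and Orm2 at chr4:63362449-63365878. Saa1 (chr7:46740497-46742980), Saa3 (chr7:46711998-46715700) and Saa4 (chr7:46727998-46732603) lie on the minus strand of chromosome 7 and Saa2 (chr7:46751790-46754313) on the plus strand of the same cluster. Hpx is at chr7:105591613-105600137, Hp at chr8:109575128-109579172 and Lcn2 at chr2:32384633-32388252, all on the minus strand. The coding sequences of Orm1 and Orm2 were 89.9% identical, those of Orm1 and Orm3 86.0%, those of Orm2 and Orm3 87.9%, and those of Saa1 and Saa2 95.1%. The first 66 coding bases of the orosomucoids are shown as an example of how the copies differ, with capitals where a base differs from Orm1.
Orm1: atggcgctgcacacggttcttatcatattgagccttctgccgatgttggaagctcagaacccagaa
Orm2: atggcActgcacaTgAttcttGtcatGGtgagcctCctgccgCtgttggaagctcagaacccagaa
Orm3: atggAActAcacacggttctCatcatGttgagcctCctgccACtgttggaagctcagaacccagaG
Orm2 differed from Orm1 at 8 of these 66 bases and Orm3 at 9. The closest pair was Saa1 and Saa2, which differed at 4 of their first 90 coding bases, in capitals below in Saa2.
Saa1: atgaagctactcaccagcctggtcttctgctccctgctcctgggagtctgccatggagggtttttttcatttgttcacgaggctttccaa
Saa2: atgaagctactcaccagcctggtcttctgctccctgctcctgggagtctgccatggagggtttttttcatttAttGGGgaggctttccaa
Reads can be shared where copies are alike. Of the stretches of 50 bases in the Orm1 transcript, 20.4% were also found in another gene, and the shares were 22.7% for Orm2, 3.59% for Orm3, 14.8% for Saa1, 13.3% for Saa2 and 0% for Hp, Hpx and Lcn2. At 100 bases, 6.95% of Orm1 and of Orm2 remained shared and none of Orm3. The deposited counts of the 10 genes were whole numbers in all 8 libraries, and how the counting divided shared reads is not given in the sources used here.

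Promoters, as 250 bases before to 50 after each start, were held by the RefSeq table (GRCm38.p6) for 8 of the 10 genes, the exceptions being Orm1 and Hp. The letters TTGCNNAA, a form of the site bound by C/EBP factors, were found on either strand in 8 of 8, against 10.8% of 32851 promoters of the same length. The stretch of 40 bases around the match nearest the start is shown for each gene, 5′ to 3′ on the gene's strand with the match in capitals.
Orm2: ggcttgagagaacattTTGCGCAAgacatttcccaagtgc
Orm3: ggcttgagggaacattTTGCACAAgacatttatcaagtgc
Saa1: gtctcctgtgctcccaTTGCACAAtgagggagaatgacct
Saa2: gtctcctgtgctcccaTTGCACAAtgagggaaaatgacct
Saa3: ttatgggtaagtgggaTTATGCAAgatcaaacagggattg
Saa4: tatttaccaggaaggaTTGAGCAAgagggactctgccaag
Hpx: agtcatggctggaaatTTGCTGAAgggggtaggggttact
Lcn2: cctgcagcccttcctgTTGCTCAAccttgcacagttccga
The matches began 120 bases before the start in Orm2 (window chr4:63362313-63362352) and 121 bases before it in Orm3 (chr4:63356021-63356060), and the windows of Saa1 (chr7:46743139-46743178) and Saa2 (chr7:46751634-46751673) held the same 8 letters as Orm3. The windows of the others were chr7:46715752-46715791 (Saa3), chr7:46732632-46732671 (Saa4), chr7:105600293-105600332 (Hpx) and chr2:32387932-32387971 (Lcn2). Saa4 held a second match further upstream. Of the other motifs searched on both strands, TTCNNNGAA (STAT3) was in 0 of 8 against 8.3% of all promoters, a form of the NF-kappaB site in 0 of 8 against 1.47%, ACANNNTGT (glucocorticoid receptor) in 2 of 8, Orm3 and Lcn2, against 6.85%, and TATAAA in 2 of 8, Orm2 and Orm3, against 13.6%. A match describes letters and not binding, and these forms leave out many sites that the factors use. The promoters of Orm2 and Orm3 were 86.2% identical. Orm3 had more counts than Orm2 in Crtc1-/- eWAT replicate 1 alone, 432 against 164, and a link to the promoter letters was not tested. Their upstream 250 bases (chr4:63362199-63362448 and chr4:63355908-63356157, plus strand) are shown as those of a similar pair, with the TTGCNNAA match in capitals.
Orm2: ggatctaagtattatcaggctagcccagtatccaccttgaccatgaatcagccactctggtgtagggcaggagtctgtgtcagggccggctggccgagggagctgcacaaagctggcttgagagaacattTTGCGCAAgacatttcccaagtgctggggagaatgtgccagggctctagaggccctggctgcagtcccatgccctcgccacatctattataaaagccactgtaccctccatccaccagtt
Orm3: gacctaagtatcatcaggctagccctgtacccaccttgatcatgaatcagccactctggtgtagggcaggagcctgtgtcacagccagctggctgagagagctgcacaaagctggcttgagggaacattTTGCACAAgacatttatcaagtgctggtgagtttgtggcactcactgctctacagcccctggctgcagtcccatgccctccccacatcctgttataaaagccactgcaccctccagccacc
The Orm3 promoter alone of the pair held ACANNNTGT, which ended just before its TATAAA.

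In liver, knockout against wild type was compared to ask whether the loss of Crtc1 moves the liver's output of these proteins. Fold changes and tests are from edgeR's quasi-likelihood test, with p adjusted by Benjamini-Hochberg over all genes tested. None of the 9 members tested in liver passed an adjusted p of 0.05, and 0.0854% of the 11707 genes tested did. At an unadjusted p under 0.05 there were 5 of 9 (Orm2, Saa1, Saa2, Saa3 and Lcn2), all higher in Crtc1-/- liver, against 17.3% of all genes and 9.73% of genes in that direction. The 2 libraries of Crtc1-/- lay wholly above the 2 of Crtc1+/+ for 5 of 9 (Orm2, Saa2, Saa3, Hp and Lcn2), against 25.8% of all genes. DESeq2 passed Orm2 alone (adjusted p = 9.67e-05), against 2.66% of all genes. Limma on FPKM passed none of the 9 and 0% of all genes, with 4 members at an unadjusted p under 0.05 against 15.4% of genes.

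**Figure D1:**
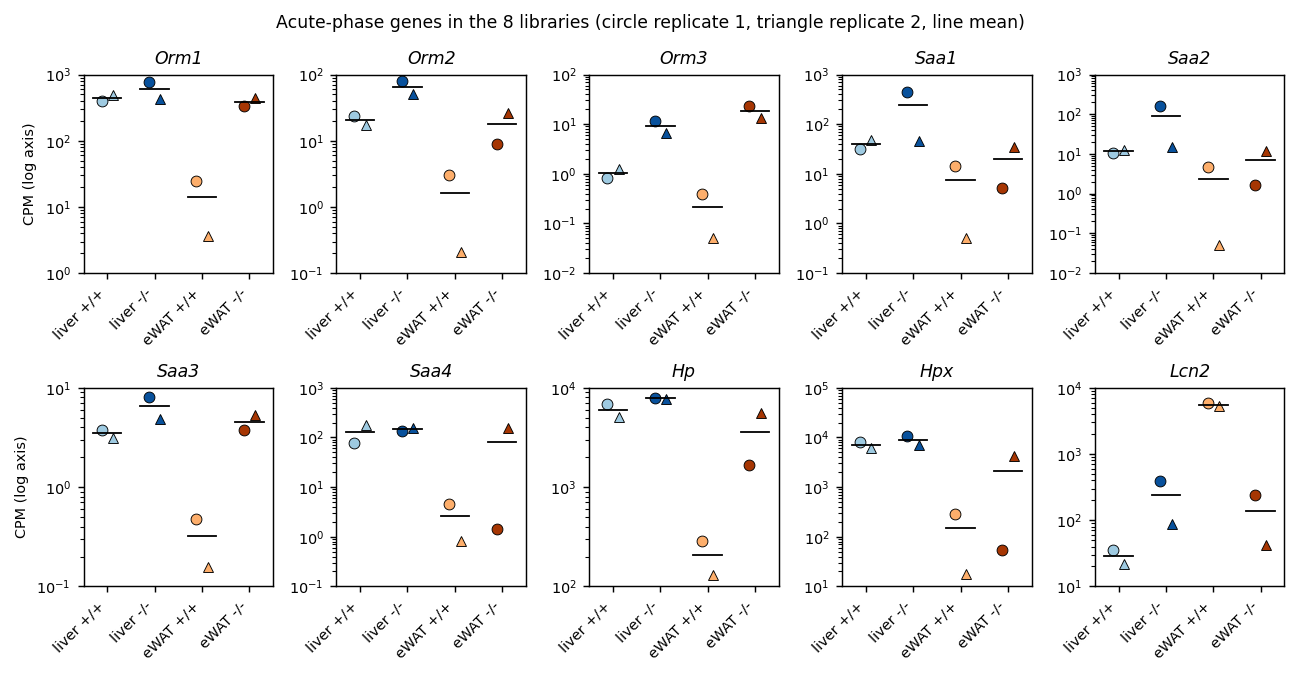
Level of each gene in CPM (log axis, TMM-scaled within tissue) in liver and eWAT of Crtc1+/+ and Crtc1-/- mice. Circles are replicate 1, triangles replicate 2 and lines the mean of the pair; Orm3 is higher in both Crtc1-/- tissues, Lcn2 is at 5251 to 5885 CPM in Crtc1+/+ eWAT alone, and the eWAT replicates of Saa4 and Hpx lie far apart.

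Among the orosomucoids of liver, Orm1 was abundant and the difference was within the spread of the replicates. It was at 404 and 485 CPM in Crtc1+/+ liver and at 775 and 425 CPM in Crtc1-/- liver. The groups overlapped, and the log2 fold change was 0.43 (SE 0.32, adjusted p = 0.494). Orm2 was at 23.3 and 17.1 CPM in Crtc1+/+ liver and at 80.3 and 50.4 CPM in Crtc1-/- liver. Both Crtc1-/- libraries were above both controls, with a 3.23-fold higher level (log2 1.69, SE 0.31, unadjusted p = 0.000346, adjusted p = 0.0830). Orm2 passed under leave-out of either Crtc1-/- liver (adjusted p = 0.000905 without replicate 1, 0.00471 without replicate 2) and not under leave-out of either control (0.296 and 0.679), where 0.368% and 0.00817% of all genes passed, against 12.5% and 1.46% without those knockouts; where a group was left with 1 library, that library was assumed to vary like the others. Orm3 was the rarest member, with 16 and 24 counts in Crtc1+/+ liver and 224 and 114 in Crtc1-/- liver, that is 0.822 and 1.26 against 11.7 and 6.65 CPM. The Crtc1-/- livers were higher in each case, by 3.14 on the log2 scale, which is the difference Orm3 was picked for.

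Of the serum amyloid A genes, Saa1 and Saa2 owed their difference in liver to a single library. Saa1 was at 31.7 and 47.7 CPM in Crtc1+/+ liver and at 438 and 46.3 CPM in Crtc1-/- liver. Replicate 1 of Crtc1-/- was thus 9.44 times replicate 2, which itself lay between the controls. The log2 fold change of 2.61 (SE 0.79, adjusted p = 0.181) went to 0.23 (adjusted p = 0.664) without that library and to 3.45 (adjusted p = 0.000112) without the other Crtc1-/- liver. Saa2 was at 10.8 and 12.8 CPM in the controls and at 164 and 15.3 CPM in Crtc1-/- liver, a ratio of 10.7 between the replicates. Its log2 fold change was 2.93 (SE 0.82, adjusted p = 0.165), and 0.38 (adjusted p = 0.465) without Crtc1-/- replicate 1. The same liver had the highest level of each member but Saa4 among the 4 livers. It also held the most counts of the epididymis markers of any liver, 1710 against 43 to 209 in the others, and their part in these differences was not tested.

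Saa3, the extrahepatic form, was low in liver at 3.80 and 3.15 CPM in controls and 8.07 and 4.90 CPM in Crtc1-/-. The groups did not overlap, and the log2 fold change was 0.90 (SE 0.36, unadjusted p = 0.0346, adjusted p = 0.261). Saa4, the constitutive form, was at 77.5 and 182 CPM in controls and 137 and 155 CPM in Crtc1-/- liver. The Crtc1-/- values lay inside the range of the controls (log2 0.17, SE 0.37, adjusted p = 0.837), and the sign turned to -0.33 without Crtc1+/+ replicate 1.

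The abundant scavengers of hemoglobin and heme did not pass in liver. Hp was at 6921 and 5065 CPM in controls and at 7953 and 7679 CPM in Crtc1-/- liver, with no overlap but a log2 fold change of 0.38 (SE 0.27, adjusted p = 0.473). Hpx was at 8055 and 6224 CPM against 10709 and 7118 CPM, with overlap (log2 0.32, SE 0.29, adjusted p = 0.595). Lcn2 was at 36.0 and 21.6 CPM in controls and at 387 and 87.4 CPM in Crtc1-/- liver. Both Crtc1-/- values were above the controls, 8.23-fold in the fit (log2 3.04, SE 0.61, unadjusted p = 0.000648, adjusted p = 0.113). Crtc1-/- replicate 1 was 4.43 times replicate 2, and the log2 fold change was 1.61 without it (adjusted p = 2.93e-05).

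In eWAT, knockout against wild type asked the same of fat. Here 3 of the 9 members tested passed an adjusted p of 0.05, against 12.2% of 15391 genes: Orm1 and Hp were higher (6.65% of genes passed in that direction) and Lcn2 was lower (5.54%) in Crtc1-/- eWAT. The groups did not overlap for 5 of 9, Orm1, Orm2, Saa3 and Hp higher and Lcn2 lower, against 66.6% of all genes, 31.3% of them higher and 35.4% lower. By edgeR none of the 9 passed without either Crtc1+/+ library, and neither did any other gene (0% of 15697 genes without replicate 1 and 0% of 16220 without replicate 2). At an unadjusted p under 0.05 there were then 6 members without replicate 1, against 21.9% of genes, and 3 without replicate 2, against 15.8%. Without Crtc1-/- replicate 2, Orm1, Hp and Lcn2 all passed, against 12.3% of genes.

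**Figure D2:**
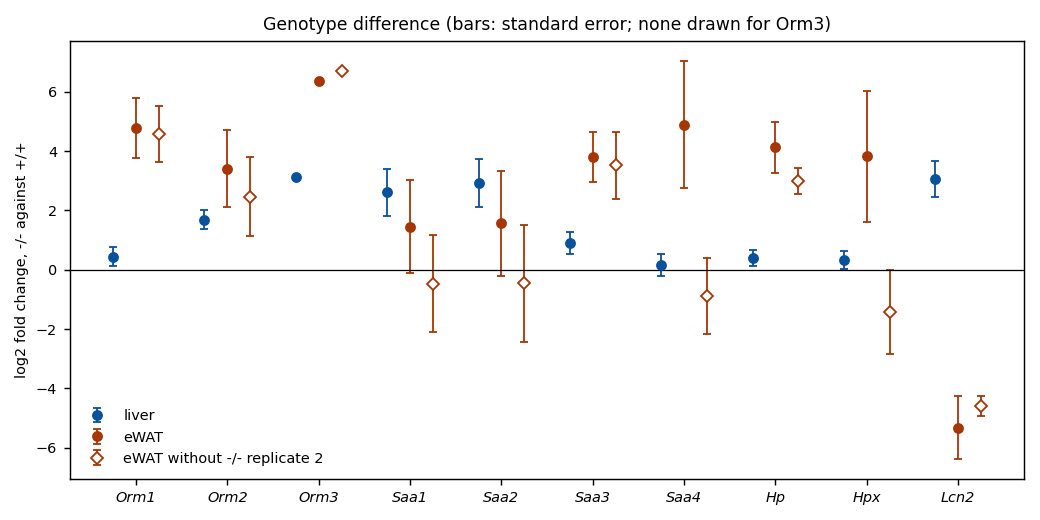
Log2 fold change of each gene between Crtc1-/- and Crtc1+/+ in liver and eWAT, and in eWAT with Crtc1-/- replicate 2 left out (open diamonds), with standard errors; Orm3 has none because it was not tested. Saa1, Saa2, Saa4 and Hpx change sign in eWAT without that library, while Orm1, Orm2, Orm3, Saa3 and Hp stay above 0 and Lcn2 below it.

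Orm1 was at 24.8 and 3.63 CPM in Crtc1+/+ eWAT and at 335 and 440 CPM in Crtc1-/- eWAT. Every Crtc1-/- value was far above the controls, 27.3-fold in the fit (log2 4.77, SE 1.02, adjusted p = 0.0476), and the log2 fold change was 4.57 (adjusted p = 0.0398) without Crtc1-/- replicate 2. Without a control it ran from 3.99 to 6.76 and missed the threshold (adjusted p = 0.252 and 0.143). Orm2 was at 3.08 and 0.207 CPM in controls, the latter from 4 counts, and at 9.01 and 26.2 CPM in Crtc1-/- eWAT. The groups did not overlap, and the difference did not pass (log2 3.41, SE 1.29, adjusted p = 0.144). The log2 fold change of Orm2 ran from 2.47 to 6.42 when each eWAT library was left out in turn. Orm3 had 8 counts and 1 count in Crtc1+/+ eWAT and 432 and 195 in Crtc1-/- eWAT, or 0.385 and 0.0519 against 23.7 and 13.5 CPM. Both Crtc1-/- values were far above the controls, and the log2 difference between genotypes was 6.35, or 6.70 without Crtc1-/- replicate 2.

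The share of the family's counts that fell on Orm3 is given as a description, because it rests on the values for which Orm3 was picked. Orm3 made up 0.192% (95% exact Clopper-Pearson interval 0.110% to 0.312%) and 0.250% (0.160% to 0.372%) of the orosomucoid counts in Crtc1+/+ liver, and 1.35% (1.18% to 1.54%) and 1.38% (1.14% to 1.65%) in Crtc1-/- liver. The shares were 6.46% (5.88% to 7.08%) and 2.82% (2.44% to 3.24%) in Crtc1-/- eWAT. In Crtc1+/+ eWAT they were 1.37% (0.591% to 2.67%, 8 of 586 counts) and 1.33% (0.0338% to 7.21%, 1 of 75), and the second interval covers the share of each of the other libraries. All intervals cover counting error only. Orm2 took 10.9% and 5.33% of the family in Crtc1+/+ eWAT, 2.45% and 5.47% in Crtc1-/- eWAT, 5.45% and 3.40% in Crtc1+/+ liver and 9.26% and 10.4% in Crtc1-/- liver. In Crtc1-/- eWAT replicate 1, Orm3 thus had more counts than Orm2, 432 against 164, which was the case in no other library. Summed over Orm1, Orm2 and Orm3, which is free of reads assigned to the wrong copy among them, the family stood at 428 and 504 CPM in Crtc1+/+ liver, 868 and 483 in Crtc1-/- liver, 28.2 and 3.89 in Crtc1+/+ eWAT and 367 and 480 in Crtc1-/- eWAT.

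**Figure D3:**
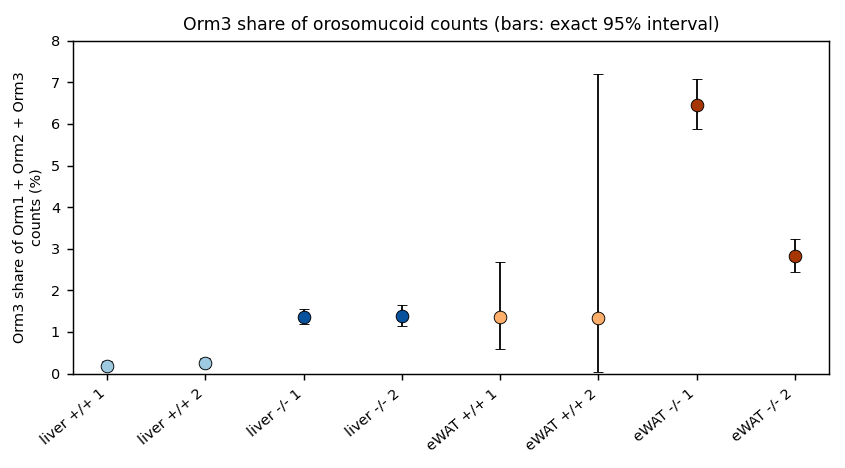
Share of the summed Orm1, Orm2 and Orm3 counts that fell on Orm3 (%), for each of the 8 libraries, with exact 95% Clopper-Pearson intervals. The share was 0.192% and 0.250% in Crtc1+/+ liver and 1.35% and 1.38% in Crtc1-/- liver, and was highest, at 6.46%, in Crtc1-/- eWAT replicate 1; the interval of Crtc1+/+ eWAT replicate 2 is wide because it rests on 75 counts.

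Saa3 was the serum amyloid of Crtc1-/- fat that did not depend on the library rich in hepatocyte markers. It was at 0.482 and 0.156 CPM in Crtc1+/+ eWAT, from 10 and 3 counts, and at 3.74 and 5.35 CPM in Crtc1-/- eWAT. The groups did not overlap, and the difference just missed the threshold (log2 3.80, SE 0.85, adjusted p = 0.0519; 3.51, adjusted p = 0.116, without Crtc1-/- replicate 2). DESeq2, limma and the fit of all 8 libraries passed it, with adjusted p of 0.000912, 0.0130 and 0.00804.

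Saa1, Saa2, Saa4 and Hpx followed the library instead. Saa1 was at 14.2 and 0.519 CPM in controls and 5.22 and 35.2 CPM in Crtc1-/- eWAT, and Saa2 at 4.58 and 0.0519 against 1.65 and 12.1 CPM. The groups overlapped for both, and their log2 fold changes of 1.45 and 1.56 (adjusted p = 0.536 and 0.561) became -0.47 and -0.46 without Crtc1-/- replicate 2. Saa4 was at 4.53 and 0.830 CPM in controls and at 1.43 and 159 CPM in Crtc1-/- eWAT. Its Crtc1-/- replicates thus differed 111-fold, and the log2 fold change of 4.89 (SE 2.15, adjusted p = 0.186) became -0.89 without replicate 2. Hpx was at 281 and 17.4 CPM against 54.4 and 4153 CPM, a ratio of 76.3 between the Crtc1-/- replicates, and its log2 fold change of 3.82 (SE 2.21, adjusted p = 0.275) became -1.43.

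Hp, by contrast, was high in both Crtc1-/- fat libraries. It was at 285 and 130 CPM in Crtc1+/+ eWAT and at 1655 and 5565 CPM in Crtc1-/- eWAT, 17.4-fold higher in the fit (log2 4.12, SE 0.87, adjusted p = 0.0469). Without Crtc1-/- replicate 2 the log2 fold change was 2.99 (SE 0.45, adjusted p = 0.0166), and without a control it missed the threshold (adjusted p = 0.204 and 0.341). Set side by side in FPKM, which takes transcript length into account, Hp and its heme-binding counterpart Hpx stood at 270 and 239 in Crtc1+/+ eWAT replicate 1 and at 120 and 14.3 in replicate 2. They stood at 1356 and 40.1 in Crtc1-/- eWAT replicate 1 and at 3750 and 2518 in replicate 2. Hp was thus far above Hpx in 1 library of each genotype.

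The members were also set against hepatocyte markers in eWAT. This ratio, members' counts per 1000 counts of the 16 markers, was chosen after seeing the data. Among the markers, Cyp2e1 made 4986 of 6195 marker CPM in Crtc1-/- eWAT replicate 1 and 492 of 1239 in Crtc1+/+ eWAT replicate 2. It made 10256 of 221912 in Crtc1+/+ liver replicate 1. The ratios of Crtc1-/- eWAT replicate 1 thus rest mainly on Cyp2e1. Ratios without it were not computed, so the places relative to liver below hold for this marker set only. In Crtc1-/- eWAT replicate 1 the ratio was above the highest liver for Orm3 (3.83 against 0.0543, 70.6 times), Lcn2 (21.4 times), Saa3 (16.2 times), Orm1 (15.1 times), Hp (7.27 times) and Orm2 (3.92 times). It was below the highest liver for Saa1 (0.417 times), Saa2 (0.351 times), Saa4 (0.306 times) and Hpx (0.177 times), and below the lowest liver for Saa4 and Hpx. In Crtc1-/- eWAT replicate 2 the ratio lay within the range of the livers for Orm1, Orm2, Saa1, Saa2, Saa3, Hpx and Lcn2, and above it for Orm3 (1.73 times), Saa4 (1.46 times) and Hp (1.05 times). Crtc1+/+ eWAT was above the livers for some of the same genes: Hp stood at 44.6 and 105 against 36.8 in the highest liver, Saa3 at 0.0754 and 0.126 against 0.0373, and Lcn2 at 921 and 4237 against 1.79. Its replicate 1 alone was above the highest liver for Orm1 (3.88 against 3.59), Orm2 (0.483 against 0.371), Orm3 (0.0603 against 0.0543) and Saa1 (2.22 against 2.02). On this scale the values of the eWAT genotypes overlapped for Orm1, Orm2, Saa3 and Hp.

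**Figure D4:**
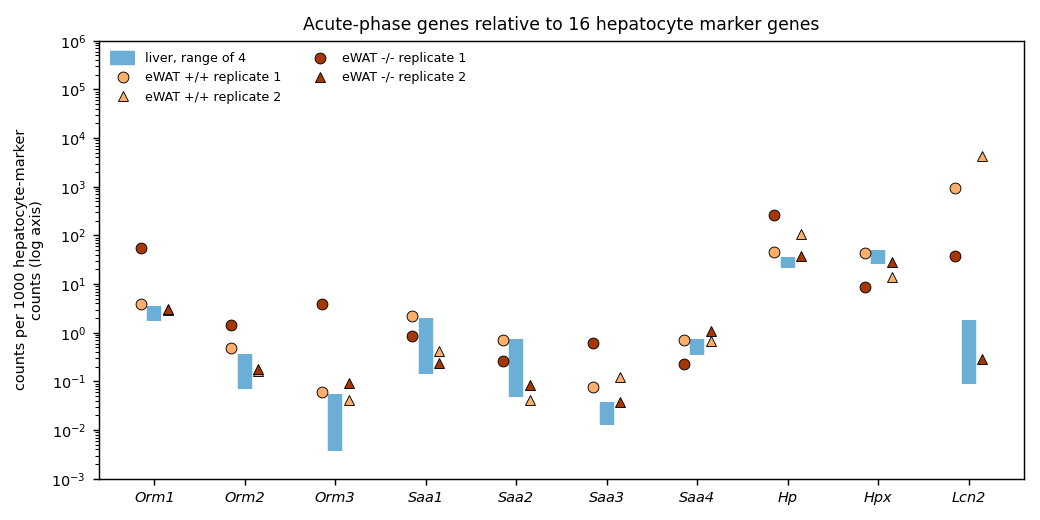
Counts of each gene per 1000 counts of 16 hepatocyte marker genes (log axis), as the range of the 4 livers (bars) and as points for the 4 eWAT libraries. Most of the marker counts of Crtc1-/- eWAT replicate 1 were of Cyp2e1. Crtc1-/- eWAT replicate 1 lies above the livers for Orm1, Orm2, Orm3, Saa3, Hp and Lcn2 and below the highest liver for Saa1, Saa2, Saa4 and Hpx, and Crtc1-/- eWAT replicate 2 lies in or near the liver range for all 10; both Crtc1+/+ eWAT libraries lie above the livers for Saa3, Hp and Lcn2.

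Adipocyte markers moved with the genotype as well, so the members were also set per 1000 adipocyte-marker counts, again chosen after seeing the data. Orm1 then stood at 8.67 and 0.733 in Crtc1+/+ eWAT and at 6.69 and 15.03 in Crtc1-/- eWAT, and Hp at 99.8 and 26.3 against 33.1 and 190. The groups overlapped for both. Of the 9 members other than Orm3, 1 did not overlap on this scale, Lcn2, which was lower in Crtc1-/- eWAT. Over all 15391 genes 92% did not overlap and 91.4% were wholly lower in Crtc1-/- eWAT. Orm3, picked for its higher level in the knockout, stood at 0.135 and 0.0105 against 0.474 and 0.462. Macrophage markers (13 genes) took 0.0465% and 0.0235% of counts in Crtc1+/+ eWAT and 0.172% and 0.0747% in Crtc1-/- eWAT, and the part of macrophages in the Saa3 values was not tested.

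Lcn2 went the other way from the rest. It was at 5885 and 5251 CPM in Crtc1+/+ eWAT and at 237 and 42.1 CPM in Crtc1-/- eWAT. The groups were far apart, with a 39.9-fold lower level in Crtc1-/- eWAT in the fit (log2 -5.32, SE 1.06, adjusted p = 0.0411). Without Crtc1-/- replicate 2 the log2 fold change was -4.58, and without either control it was -5.29 and -5.37. Without Crtc1-/- replicate 1 it was -7.04. The epididymis markers went with it: all 18 were lower in Crtc1-/- eWAT and all 18 passed the test, led by Gpx5, a secreted epididymal glutathione peroxidase, at 40801 and 50642 CPM against 1.81 and 7.01 CPM. Across the 8 libraries the order of Lcn2 followed that of these markers closely, with Crtc1-/- liver replicate 1 the highest in both outside the Crtc1+/+ eWAT. This is a description over 8 libraries of 2 tissues, and how much of the Lcn2 came from epididymis was not tested. The ratio of Lcn2 to the markers was not constant, at 78.3 and 58.1 counts per 1000 marker counts in Crtc1+/+ eWAT and at 2515 to 14306 in the other 6 libraries.

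Neutrophils also make lipocalin 2. Their 13 markers took 0.0208% and 0.0126% of counts in Crtc1+/+ eWAT and 0.00208% and 0.000664% in Crtc1-/- eWAT. Ltf, lactoferrin, was at 179.9 and 113 CPM in Crtc1+/+ eWAT and at 8.19 and 0.417 CPM in Crtc1-/- eWAT (log2 -5.08, adjusted p = 0.0732). All 13 markers summed to 183 and 115 CPM in Crtc1+/+ eWAT and to 21.1 and 8.12 CPM in Crtc1-/- eWAT. The higher summed share in Crtc1+/+ eWAT was thus nearly all Ltf and does not describe the set. Of the 13, 5 were tested in eWAT, where Ltf had a negative log2 fold change and 4 a positive one, among them Elane, neutrophil elastase, which passed (3.37, adjusted p = 0.0477) and is named after its value was seen. Ly6g had no counts in any eWAT library, and 2 and 7 of the 13 were at 0 in Crtc1+/+ eWAT against 1 and 2 in Crtc1-/- eWAT. The part of neutrophils in the Lcn2 values was not tested.

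**Figure D5:**
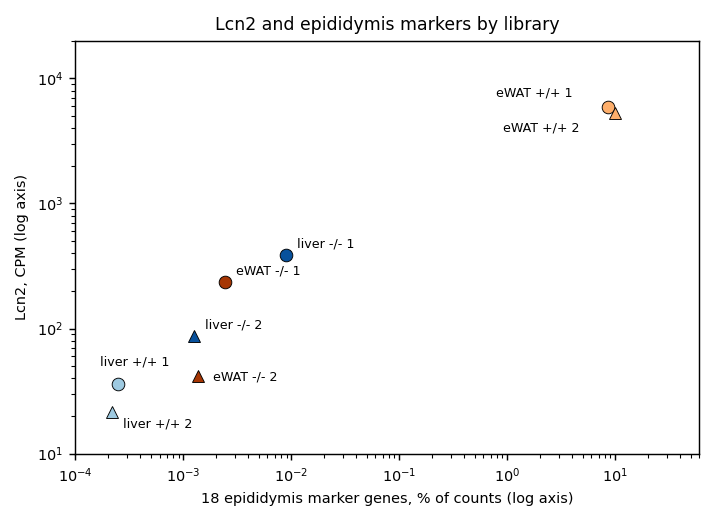
Lcn2 in CPM (TMM-scaled within tissue) against the share of counts taken by 18 epididymis marker genes (%), both on log axes, for the 8 libraries. The Crtc1+/+ eWAT libraries lie at 8.53% and 9.90% of counts and at 5885 and 5251 CPM, the other 6 at or below 0.00899% and at 387 CPM or less.

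Whether the genotype difference itself differed between tissues was tested as the interaction of tissue and genotype in 1 fit of all 8 libraries. Lcn2 alone of the 9 members tested passed (1 of 9, against 6.94% of 15587 genes, 3.16% in its direction), being higher in Crtc1-/- liver and lower in Crtc1-/- eWAT, with a log2 difference of the differences of -8.52 (SE 1.46, adjusted p = 0.0210). Without Crtc1-/- eWAT replicate 2 it was -7.63 (adjusted p = 0.0129), and it missed the threshold without either Crtc1+/+ liver, without Crtc1-/- liver replicate 1 or without either Crtc1+/+ eWAT library (adjusted p = 0.0555 to 0.110), fits in which 0 to 408 genes passed in all. With 1 library left out the Lcn2 interaction ran from -10.1 to -7.06. Orm1, Saa3 and Hp had the next smallest adjusted p (0.0783, 0.0810 and 0.107), with log2 values of 4.25, 2.81 and 3.70, and DESeq2 passed all 3. For Saa1 and Saa2 the log2 value was -1.19 and -1.41 (adjusted p = 0.778 and 0.729).

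Between tissues, Crtc1+/+ eWAT had less of most members than Crtc1+/+ liver. Levels of different genes are compared here in FPKM, the deposited values that take both the length of a transcript and the depth of the library into account. In Crtc1+/+ liver the order by mean FPKM was Hpx (4570 and 5975), Hp (4141 and 5713), Orm1 (632 and 756), Saa1 (62.0 and 92.4), Saa4 (40.6 and 94.3), Lcn2 (30.1 and 50.5), Orm2 (26.9 and 36.8), Saa2 (22.2 and 26.3), Saa3 (8.13 and 9.82) and Orm3 (0.82 and 0.88). Hpx and Hp overlapped, as did each neighbour from Saa1 to Orm2, while the other neighbours were apart. Crtc1-/- liver kept Hpx, Hp and Orm1 at the top and Orm3 at the bottom, now at 6.76 and 12.6 FPKM.

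In Crtc1+/+ eWAT, Lcn2 led at 8216 and 9453 FPKM, Hp followed at 120 and 270 FPKM, and Orm3 was last at 0.03 and 0.43 FPKM. Only Lcn2 and Orm3 were apart from their neighbours in that order, both for Lcn2 above Hp and for Orm3 below Saa3. In Crtc1-/- eWAT the order was led by Hp (1356 and 3750 FPKM), Hpx (40.1 and 2518) and Orm1 (519 and 556), and Orm3, at 12.1 and 24.5 FPKM, had a mean above Saa2 and Saa3, with overlap with Saa2 and none with Saa3. Orm1 was the steadiest member of Crtc1-/- fat, since its FPKM replicates differed least relative to their mean.

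Within Crtc1+/+ mice, 8 of 10 members passed between tissues, against 54.9% of 15587 genes: 7 were lower in eWAT (19.8% of genes) and Lcn2 was higher (35% of genes). This fit treated the libraries as independent, and fewer members passed with the replicate number as a block. The log2 differences, eWAT minus liver, were -6.17 for Orm1, -6.06 for Hp, -6.78 for Hpx, -6.79 for Saa4, -4.80 for Orm2 and -4.60 for Saa3 (adjusted p = 0.00203 to 0.0388), and 6.38 for Lcn2 (SE 1.14, adjusted p = 0.00467). Orm3, at -3.38, is among the 7. It was picked by its genotype values in these same libraries, so its tissue values are a description. With 1 library left out, Orm1 ran from -8.16 to -5.38, Orm2 from -7.77 to -3.92, Saa4 from -8.50 to -6.05 and Hpx from -9.91 to -5.88. Saa1 and Saa2 did not pass (-3.63 and -3.53, adjusted p = 0.105 and 0.112), although all 10 members had no overlap between the tissues (82.7% of genes). The median of all genes on this scale was 0.61. Within Crtc1-/- mice only Saa3 passed (1 of 10, against 27.8% of genes, 8.89% in its direction), at -1.79 (SE 0.54, adjusted p = 0.0460), and the median of all genes was 0.20. Orm3 was at -0.30, again as a description, a sign that turned with library-size scaling (0.88) and without Crtc1-/- liver replicate 1 (0.17). Without Crtc1-/- eWAT replicate 2, 7 of 10 passed as lower in eWAT (Orm2, Saa1, Saa2, Saa3, Saa4, Hp and Hpx), against 15.2% of 16469 genes in that direction.

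Members varied together in part. After centring log2 CPM within each tissue, Saa1 and Saa2 had a correlation of 0.998 over the 8 libraries and Saa4 and Hpx one of 0.955, while Orm1, Orm2, Orm3, Saa3 and Hp had correlations of 0.842 to 0.970 with each other. Lcn2 was negative against each of the others, from -0.813 with Hp to -0.172 with Saa2. These values describe 8 libraries that share tissue, genotype and cell makeup, and they carry no test. The share of Saa1 in the sum of Saa1 and Saa2 was 72.7% to 78.8% in the 7 libraries with more than 11 counts of the pair. By the same measure over 11009 genes, those most like Orm3 were Rasgrp2, Ndufb3 and Msn (0.990 to 0.994), those most like Saa3 were Rarres2, the gene of chemerin, 2200002D01Rik and Inca1 (0.992 to 0.995), and those most like Lcn2 were B230118H07Rik, Cystm1 and Cuzd1 (0.991 to 0.994).

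In liver, other acute-phase genes were divided in direction. Of 28 further genes that rise in the acute phase, 27 were tested in liver, where 9 were higher and 18 lower with a median log2 fold change of -0.20, against 0.00393 over all genes. Only Mt2, a metallothionein that binds zinc, passed there (1 of 27, against 0.0854% of all genes), while without Crtc1-/- liver replicate 1 there were 4 higher and 5 lower that passed, against 6.92% and 5.59% of genes. Mt2 was at 74.1 and 83.5 CPM in controls and 705 and 354 CPM in Crtc1-/- liver (log2 2.75, SE 0.36, adjusted p = 0.0418). Fibrinogen and C-reactive protein belong to that list, and Crp was at 274 and 363 CPM against 207 and 210 CPM (log2 -0.61, adjusted p = 0.274).

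In eWAT the same list had 27 of 27 higher in Crtc1-/- with a median of 3.40, and 13 higher and 14 lower with a median of -0.53 without Crtc1-/- replicate 2. The 5 that passed with all libraries also passed without it: Steap4, a metalloreductase (log2 2.88, then 3.21), Serpina3n, a protease inhibitor (3.92, then 3.47), Lbp, which binds lipopolysaccharide (2.08, then 2.14), Lrg1, a leucine-rich glycoprotein (3.21, then 2.43), and C4b, a complement component (3.40, then 2.52). Cfb, complement factor B, passed only in the smaller set (2.58, adjusted p = 0.0422), for 6 of 27 against 7.01% of all genes; it is named after its value was seen. Lbp was at 77.8 and 46.9 CPM in Crtc1+/+ eWAT and at 278 and 248 CPM in Crtc1-/- eWAT, with no overlap. The 12 negative acute-phase genes, whose plasma proteins fall in inflammation, had a median of 0.12 in liver. There 0 of 12 passed by edgeR and 4 had an unadjusted p under 0.05, against 0.0854% and 17.3% of all genes. In eWAT their median was 4.17 with 0 of 12 passing by edgeR, against 12.2% of all genes. At an unadjusted p under 0.05 there were 2, a level for which the share of all genes is not given here. Without Crtc1-/- replicate 2 the median was -1.51, with 2 higher and 10 lower. Alb, albumin, was at 2761 and 422 CPM in Crtc1+/+ eWAT and at 522 and 65412 CPM in Crtc1-/- eWAT.

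Genes upstream of the members were higher in part in Crtc1-/- eWAT, where markers of other cell types were higher too. Adipocyte markers were higher in 15 of 15, with a median log2 fold change of 3.65 and 10 passing, and endothelial markers in 9 of 9, with a median of 3.26 and all passing. Their part in the values of these genes was not tested. Of the cytokines and receptors that induce these proteins, 3 of 13 passed in eWAT and all 3 were higher, against 6.65% of all genes: Il6st, the gp130 chain, was at 85.7 and 85.0 CPM in controls and 369 and 372 CPM in Crtc1-/- eWAT (log2 2.12, SE 0.29, adjusted p = 0.0227). The others were Il17rc (2.15) and Tnfrsf1a (1.75). Of the transcription regulators, 6 of 23 passed, all higher: Cebpa, Cebpd, Tsc22d3, Nfkbia, Per1 and Socs3. Cebpa was at 92.2 and 95.3 CPM in controls and 853 and 751 CPM in Crtc1-/- eWAT (log2 3.10, SE 0.35, adjusted p = 0.0178), and Cebpd at 19.5 and 17.5 against 83.1 and 96.6 CPM (2.28, adjusted p = 0.0194). The replicates of each were close, and without Crtc1-/- replicate 2 the values were 3.15 and 2.14 (adjusted p = 0.00563 and 0.0209). Stat3 and Cebpb did not pass in eWAT (0.69 and 0.92, adjusted p = 0.168 and 0.172). In liver 0 of 14 cytokines and receptors and 0 of 23 regulators passed by edgeR, with 2 and 4 at an unadjusted p under 0.05, and at 0.0854% of all genes passing this says little of these lists. Without Crtc1-/- liver replicate 1, 1 cytokine or receptor gene was higher and 1 lower, and 3 regulators were higher and 3 lower, against 6.92% and 5.59% of all genes. The interaction of tissue and genotype passed for 3 of 16 cytokines and receptors, Il6st among them (2.13, adjusted p = 0.0199). It passed for 2 of 23 regulators, near the share of 6.94% over all genes.

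Among receptors and partners of the members, 5 of 17 passed in eWAT, all higher, against 6.65% of all genes. In liver 0 of 15 passed, against 0.0854%, and by edgeR none had an unadjusted p under 0.05, while 1 passed as lower without Crtc1-/- liver replicate 1. Cd163, the macrophage receptor for haptoglobin bound to hemoglobin, was at 3.37 and 3.89 CPM in Crtc1+/+ eWAT and at 13.6 and 17.0 CPM in Crtc1-/- eWAT (log2 2.07, SE 0.42, adjusted p = 0.0434). Lrp1, the receptor for hemopexin bound to heme, was at 130 and 111 against 450 and 595 CPM (2.11, adjusted p = 0.0289), and Hmox1, which breaks down heme, at 22.7 and 14.0 against 160 and 86.0 CPM (2.75, adjusted p = 0.0305). Scarb1, a high-density lipoprotein receptor that also binds serum amyloid A, and Blvrb, a biliverdin reductase, had log2 fold changes of 1.92 and 2.30. Cd163 did not pass without Crtc1-/- replicate 2 (1.87, adjusted p = 0.127), and the other 4 did. The adipocyte and endothelial markers were higher in the same libraries, as were 12 of 13 macrophage markers (3 passing), and their part in these values was not tested.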

How the data were processed

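RNA was extracted with Trizol and sequenced at BGI. The authors deposited estimated counts per gene, not normalized, and FPKM for 19348 genes. The submitters' processing notes name HISAT, Bowtie2 and GRCm38.p6; the counting tool, annotation and read length are not given in the sources used here. Of the deposited count values, 5.44% to 9.98% per library were not whole, and counts were rounded. Groups were taken from the sample labels.

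Genes were filtered by filterByExpr, scaled by TMM within tissue (factors 0.818 to 1.14) and tested by the quasi-likelihood test of edgeR 4.0.16 in R 4.3.3, and p-values were adjusted by the Benjamini-Hochberg method across every gene in the fit. Tissue contrasts and the interaction came from 1 fit of all 8 libraries scaled together. A permutation test of 2 against 2 cannot give p under 0.333. The study's methods describe the replicates as biological, with liver and eWAT taken from 2 mice of each genotype; fits of both tissues treat the libraries as independent. Alternatives were DESeq2 1.42.0, limma 3.58.1 on quantile-normalized log2(FPKM + 1), no filter, library-size and upper-quartile scaling, the replicate number as a block, all 8 libraries in 1 fit and each library left out. The tests were checked on simulated data. Sequence work used GENCODE transcripts and RefSeq promoters with Python 3.11.15 and Biopython 1.88; figures used matplotlib 3.10.9. The members and gene lists were chosen with earlier results of these data known. The genes of other lists named with values were those passing an adjusted p of 0.05, up to 5 per list and tissue, or the most abundant where none passed, and of marker lists up to 3 with the highest mean CPM; Crp, Socs3, Stat3, Cebpb, Cfb and Elane were named outside that rule, after their values were seen. Genes named for likeness in pattern were the 3 with the highest correlation among those with a mean log2 CPM of at least 1.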

Additional observations from a re-analysis of the deposited data

Results flagged for a closer look

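The genotype difference of Lcn2 went in opposite directions in the 2 tissues: it was higher in both Crtc1-/- livers and lower in both Crtc1-/- eWAT libraries than in the controls, with an interaction of -8.52 on the log2 scale (SE 1.46, adjusted p = 0.0210, edgeR's quasi-likelihood test). Epididymis markers took 8.53% and 9.90% of counts in the Crtc1+/+ eWAT libraries, and 1710 counts in Crtc1-/- liver replicate 1 against 43 to 209 in the other livers. Their part in this difference was not tested.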

How the results depend on the processing

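Counts of members passing depended on the processing. The share of all genes passing moved too, in liver from 0.0854% as reported to 2.66% by DESeq2 and 0% by limma. Such shares are not given for each setting below. The counts there therefore do not separate a change in the members from a change over all genes. In liver they were 0 as reported, 1 by DESeq2 and 4 without a filter; leaving out 1 library each gave 0 to 4. In eWAT, 3 became 5 by DESeq2 and 1 with upper-quartile scaling (Lcn2), and leaving out each library gave 0 to 4. Between tissues within Crtc1+/+, leaving out a library gave 5 to 8. Within Crtc1-/-, 1 became 7 by DESeq2, 2 without a filter, with upper-quartile scaling or by limma, and 0 with library-size scaling, and leaving out a library gave 0 to 7. For the interaction, 1 became 4 by DESeq2 and 3 by limma, and leaving out a library gave 0 to 5. Beyond the constructions themselves (fewer libraries or other genes tested), the causes were not tested.

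The replicate number as a block gave 2 in liver (Orm2 and Lcn2), 0 in eWAT (4 at an unadjusted p under 0.05), 6 within Crtc1+/+, 1 within Crtc1-/- and 1 for the interaction. Same-numbered libraries had deviations correlated at 0.0712 in liver, -0.327 in eWAT, 0.270 across tissues in Crtc1+/+ and 0.0132 in Crtc1-/-, so the numbers were not taken to pair the samples. With the block the interaction of Saa1 turned to 0.19.

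Signs turned when libraries were left out, with these ranges of the log2 fold change. In liver, Orm1 ran from -0.054 (without Crtc1-/- replicate 1) to 0.80 and Saa4 from -0.33 (without Crtc1+/+ replicate 1) to 0.90. In eWAT, Saa1 ran from -0.47 to 5.35, Saa2 from -0.46 to 6.95, Saa4 from -0.89 to 6.69 and Hpx from -1.43 to 7.03, each lowest without Crtc1-/- replicate 2. Orm3 between Crtc1-/- tissues ran from -0.66 to 0.17 and was 0.88 with library-size scaling. For the interaction, Saa1 ran from -3.18 to 2.65, Saa2 from -3.49 to 3.86, Saa4 from -1.13 to 6.44 and Hpx from -1.85 to 6.63. The order of members by CPM instead of FPKM moved 2 to 5 of 10 ranks per group, by at most 2. Orm3, Saa2 and Saa3 had 1 to 3 counts in Crtc1+/+ eWAT replicate 2, so depth limits their folds there.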
